A study of Homo sapiens with 8 samples.

Results

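The 10 genes described here encode factors that transcribe replication-dependent histone genes or make and trim the 3′ ends of their RNAs: NPAT, SLBP, LSM10, LSM11, ZNF473, CASP8AP2, CPSF2, CPSF3, SYMPK and ERI1. They were chosen by name and known function, from 60676 genes in the count table, with earlier results of these libraries known. Of the 60676 genes, 16680 passed the filter on low counts and were tested, and all 10 factors were among them. Each group held 2 libraries of IGR-N91, a human cell line from a stage 4 neuroblastoma, grown as aggregates in hanging drops. All 4 groups shared the line and the hanging drop culture, and differed in the medium. The control medium had held no ganglia, E8-cSGcm was conditioned by sympathetic ganglia of chick embryos at embryonic day 8, E8-cDRGcm by chick dorsal root ganglia at embryonic day 8, and E15.5-mSGcm by sympathetic ganglia of mouse embryos staged E15.5. Exposure lasted 20 hours by the sample labels and 24 hours by the series text. The libraries came from 1 cell line. The study's methods call its measurements distinct samples and give RNA-seq in duplicate, without saying whether duplicates were separate cultures, so the errors below cover the spread between these libraries, which may be technical.

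Replication-dependent histone genes are transcribed in S phase, and their mRNAs are the metazoan mRNAs that end in a conserved stem-loop in place of a poly(A) tail. NPAT, phosphorylated by cyclin E and CDK2, switches on their transcription in nuclear histone locus bodies. SLBP binds the stem-loop, and the U7 small nuclear ribonucleoprotein pairs with a purine-rich element just downstream. These complexes recruit symplekin (SYMPK), CPSF2 and the endonuclease CPSF3, which cuts the RNA between both elements. The exonuclease ERI1 trims the cut end and takes part in histone mRNA decay.

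The histone stem-loop that SLBP recognizes is shown for the 3 histone genes that fell most in E15.5-mSGcm and for 4 that fell least or not, a choice made after the values were seen. Capitals mark the stem-loop of 16 bases, and the sequences run 5′ to 3′ as DNA.
H4C9: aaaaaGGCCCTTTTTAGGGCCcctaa
H2BC11: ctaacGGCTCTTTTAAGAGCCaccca
H3C12: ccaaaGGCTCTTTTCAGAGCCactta
H4C13: tcaaaGGCCCTTCTCAGGGCCaccca
H4C16: caaaaGGCCCTTTTCAGGGCCcccaa
H4C5: tcaaaGGCCCTTTTCAGGGCCgccca
H3C6: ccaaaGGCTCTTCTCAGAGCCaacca
In GRCh37 these lie at chr6:27107428-27107453 on the plus strand for H4C9, at chr6:27100095-27100120 on the minus strand for H2BC11 and at chr6:27858093-27858118 on the minus strand for H3C12. H4C13 is at chr6:27840926-27840951 on the minus strand, H4C16 at chr12:14923653-14923678 on the minus strand, H4C5 at chr6:26205224-26205249 on the plus strand and H3C6 at chr6:26225819-26225844 on the plus strand. Each lies in an exon. In the transcript shown the stem-loop was followed by 9 bases in H4C9, by 507 of 577 in H4C16 and by 5 in the others. GENCODE also lists transcripts of H2BC11, H4C16 and H3C6 that run past the stem-loop or splice around it. A match to the histone stem-loop was found in the transcripts of 64 of 64 histone genes listed and of 56 of 20111 other protein-coding genes, or 0.278%. The commonest form, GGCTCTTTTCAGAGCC, was carried by 38 of the 64 genes.

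U7 snRNA, the RNA part of the particle that LSM10 and LSM11 build, is shown with its unusual Sm site in capitals, the site on which the Lsm10 and Lsm11 ring assembles.
RNU7-1: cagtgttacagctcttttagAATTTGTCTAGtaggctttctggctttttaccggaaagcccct
Its gene lies at chr12:7052979-7053041 on the plus strand in GRCh37. RNU7-1 had 2 counts in 1 control library, 1 count in 1 E8-cDRGcm library and 0 in the other 6 libraries, so no level could be compared. A count of 0 in these libraries allows a level of up to 0.378 CPM (counts scaled by library size, as below) in the shallowest of them.

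No factor reached a 1.5-fold change against control medium in any conditioned medium, while the histone mRNAs they act on fell 4.51-fold in sum in E15.5-mSGcm. SLBP was the factor whose level separated the media most. It stood above control in both chick media and below control in E15.5-mSGcm, and it was the only 1 of the 10 to differ at least 1.5-fold between any pair of media. In bulk RNA, fewer cells making a transcript and less of it in each cell cannot be told apart.

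Library totals ranged from 7930765 to 15060744 counts, and the E15.5-mSGcm libraries were the shallowest at 7930765 and 8937397. A factor had between 122 and 2967 counts in a library. Levels are given in CPM, counts per 1000000 of the library total over tested genes after TMM scaling between libraries. The coefficient of variation of a factor within a group had a median of 3.55% and a maximum of 17.7%. As a check of the cell label, 9 of 9 neuroblastoma markers were detected in every library, among them MYCN at 2433 to 4679 CPM. Their summed level was 6122 CPM ± 59.5 (SD, n = 2) in control and 3723 CPM ± 116 (SD, n = 2) in E15.5-mSGcm. Of 13 markers of other cells in the table, SOX10, FABP7 and CDH5 were at 0 in all libraries, and the summed level of the list ranged from 151 to 222 CPM. Of the 6 of these that could be tested, the fibroblast genes DCN, COL1A2 and LUM were called higher in E15.5-mSGcm and COL1A1 was called lower. The part of depth and of these markers in the results below was not tested.

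**Figure D1:**
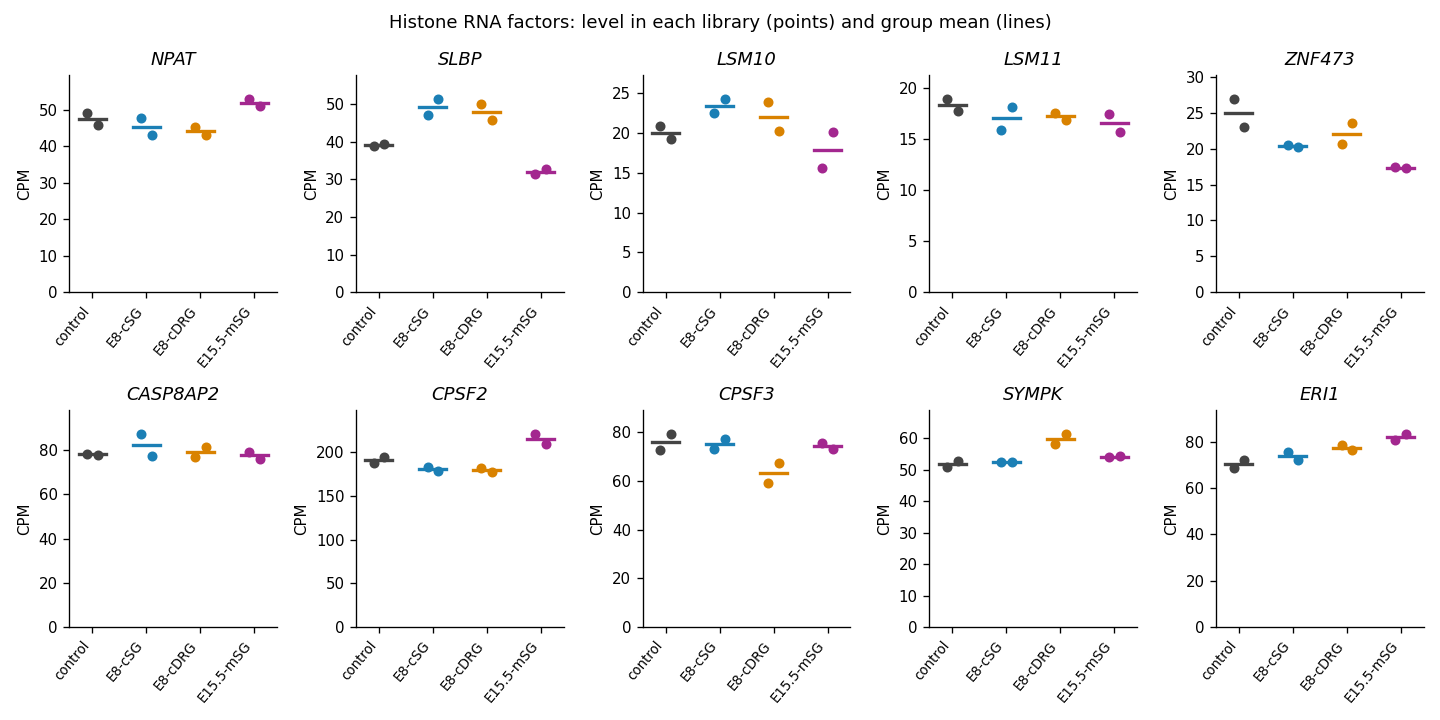
Level of each factor in CPM (vertical axes, from 0) in the 2 libraries of each medium (points), with the group mean (lines). SLBP is highest in the chick media (45.9 to 51.4 CPM) and lowest in E15.5-mSGcm (31.5 and 32.7 CPM), and the other panels are flatter.

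NPAT (ENSG00000149308, chr11:108027942-108093365, minus strand), the coactivator of histone transcription, was read at 49.1 and 45.8 CPM in control. It was at 47.6 and 43.0 CPM in E8-cSGcm, at 45.2 and 43.1 CPM in E8-cDRGcm and at 52.9 and 51.0 CPM in E15.5-mSGcm. The E15.5-mSGcm libraries lay above all 6 others, the E8-cSGcm libraries overlapped control, and both E8-cDRGcm libraries were just below it. The log2 fold change was −0.07 ± 0.08 (SE, n = 2 per group) in E8-cSGcm, −0.10 ± 0.08 in E8-cDRGcm and 0.13 ± 0.08 in E15.5-mSGcm. All 3 of its 95% intervals held 0.

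CASP8AP2 (ENSG00000118412, chr6:90539613-90584155, plus strand), also called FLASH, joins LSM11 in histone locus bodies to bring in the cleavage complex. Its level was 78.4 and 77.9 CPM in control, 87.4 and 77.4 CPM in E8-cSGcm, 76.9 and 81.3 CPM in E8-cDRGcm, and 79.3 and 76.2 CPM in E15.5-mSGcm. The libraries of every conditioned medium overlapped those of control, and its log2 fold changes lay between −0.01 and 0.07. CASP8AP2 varied least of the 10 factors, with 1.15-fold between its lowest and highest library.

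SLBP (ENSG00000163950, chr4:1694458-1714071, minus strand), the stem-loop binding protein, was at 39.0 and 39.4 CPM in control. Both chick media were higher, at 47.1 and 51.4 CPM in E8-cSGcm and at 50.0 and 45.9 CPM in E8-cDRGcm. The mouse medium was lower, at 31.5 and 32.7 CPM. No library of a chick medium overlapped control, nor did any library of E15.5-mSGcm, and control libraries lay between them. The log2 fold change against control was 0.33 ± 0.08 (95% interval 0.18 to 0.49) in E8-cSGcm, 0.29 ± 0.08 (0.13 to 0.45) in E8-cDRGcm and −0.29 ± 0.09 (−0.47 to −0.11) in E15.5-mSGcm.

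Compared between media, SLBP was lower in E15.5-mSGcm than in E8-cSGcm by a log2 difference of −0.62 ± 0.09 (95% interval −0.80 to −0.44), or 1.54-fold. Against E8-cDRGcm the difference was −0.58 ± 0.09 (−0.75 to −0.40), or 1.49-fold, just short of 1.5-fold. The chick media differed from each other by −0.04 ± 0.08 (−0.19 to 0.11). The value of −0.62 fell to −0.56, under the threshold, without the second E8-cSGcm library. With 1 library left out, the difference against E8-cDRGcm ranged from −0.65 to −0.51, on both sides of the threshold.

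The U7 particle has 2 proteins of its own, LSM10 and LSM11, which replace a pair of Sm proteins found in spliceosomal particles. LSM10 (ENSG00000181817, chr1:36856839-36863509, minus strand) was at 21.0 and 19.2 CPM in control, 22.5 and 24.3 CPM in E8-cSGcm, 23.9 and 20.2 CPM in E8-cDRGcm, and 15.6 and 20.1 CPM in E15.5-mSGcm. Its E15.5-mSGcm libraries were the farthest apart, relative to their mean, of any factor in any group, and 1 of them overlapped control. Its log2 fold changes against control were 0.23 ± 0.11, 0.14 ± 0.11 and −0.16 ± 0.12 in the same order of media. LSM10 ranked with SLBP in the order of the media means, highest in E8-cSGcm and lowest in E15.5-mSGcm, and differed between these by −0.38 ± 0.12.

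LSM11 (ENSG00000155858, chr5:157170720-157187717, plus strand), the subunit that contacts CASP8AP2, was at 18.9 and 17.7 CPM in control, 15.9 and 18.1 CPM in E8-cSGcm, 17.5 and 16.8 CPM in E8-cDRGcm, and 17.4 and 15.7 CPM in E15.5-mSGcm. Group means spanned 16.5 to 18.3 CPM, and all 6 of its intervals between groups held 0.

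ZNF473 (ENSG00000142528, chr19:50528971-50556671, plus strand) encodes ZFP100, a zinc finger protein that binds the complex of SLBP and the stem-loop and links it to the U7 particle. It was at 26.9 and 23.0 CPM in control, 20.5 and 20.2 CPM in E8-cSGcm, 20.6 and 23.5 CPM in E8-cDRGcm, and 17.4 and 17.3 CPM in E15.5-mSGcm. The E15.5-mSGcm libraries were below the other 6, and the 2 control libraries were farther apart than those of any other group. Its log2 fold changes were −0.29 ± 0.10, −0.17 ± 0.10 and −0.52 ± 0.12, the last being the largest of any factor against control. Without the second control library the E15.5-mSGcm value was −0.64, past the 1.5-fold threshold. On the opposite strand, exons of VRK3 cover 3.23% of the ZNF473 exon bases and those of an antisense RNA 3.55%, and the strand setting of the counting is not given in the sources used here.

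The cleavage complex shared with poly(A) site processing did not move as a unit. CPSF2 (ENSG00000165934, chr14:92588313-92638489, plus strand), the catalytically inactive partner of CPSF3, was at 188 and 195 CPM in control and at 221 and 209 CPM in E15.5-mSGcm. In the chick media it was at 183 and 179 CPM in E8-cSGcm and at 182 and 178 CPM in E8-cDRGcm. E15.5-mSGcm was above and both chick media below control with no overlap, by log2 fold changes of 0.17 ± 0.05, −0.08 ± 0.05 and −0.09 ± 0.05. Libraries did not overlap control for 68.3%, 63.6% and 73.5% of all genes, in the same order. Both chick intervals held 0 (−0.19 to 0.02 in E8-cSGcm and −0.19 to 0.01 in E8-cDRGcm).

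CPSF3 (ENSG00000119203, chr2:9563780-9613230, plus strand), the endonuclease itself, was at 72.7 and 79.4 CPM in control and at 59.2 and 67.3 CPM in E8-cDRGcm, the only medium whose libraries lay apart from control. In E8-cSGcm it was at 73.2 and 77.4 CPM and in E15.5-mSGcm at 75.5 and 73.1 CPM. The log2 fold change in E8-cDRGcm was −0.27 ± 0.07, and the other media gave −0.02 ± 0.07 and −0.04 ± 0.07.

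SYMPK (ENSG00000125755, chr19:46318668-46366452, minus strand), the scaffold that holds CPSF2 and CPSF3, went the other way in E8-cDRGcm. It was at 58.1 and 61.5 CPM there, against 50.8 and 52.8 CPM in control, 52.4 CPM in both E8-cSGcm libraries, and 53.9 and 54.5 CPM in E15.5-mSGcm. Its log2 fold change in E8-cDRGcm was 0.21 ± 0.07. Within the complex, E8-cDRGcm therefore had less CPSF3 RNA and more SYMPK RNA than control, both by less than 1.5-fold. With DESeq2 the adjusted p was 0.02 for CPSF3 and 0.10 for SYMPK.

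ERI1 (ENSG00000104626, chr8:8859657-8974256, plus strand), the 3′ exonuclease, was at 68.7 and 71.9 CPM in control, 75.4 and 72.3 CPM in E8-cSGcm, 78.5 and 76.4 CPM in E8-cDRGcm, and 80.6 and 83.4 CPM in E15.5-mSGcm. Every conditioned library was above both control libraries, but libraries of most genes tested did not overlap control (63.6% to 73.5% by medium). The E8-cSGcm interval of ERI1 held 0 (−0.06 to 0.20). The log2 fold change was 0.07 ± 0.06 in E8-cSGcm, 0.14 ± 0.06 in E8-cDRGcm and 0.22 ± 0.07 in E15.5-mSGcm.

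Levels of different genes were compared per kilobase of merged exons. SLBP was the highest at 22.4 CPM per kb ± 4.05 (SD over 8 libraries), followed by CPSF3 at 19.6 ± 1.73, CPSF2 at 14.1 ± 1.16, LSM10 at 13.85 ± 1.86 and ERI1 at 11.9 ± 0.76. CASP8AP2 was at 9.74 ± 0.44, NPAT at 6.27 ± 0.48, SYMPK at 5.18 ± 0.34, ZNF473 at 3.07 ± 0.47 and LSM11 at 2.63 ± 0.17 CPM per kb. Neighbours in this order had overlapping library ranges, except that CASP8AP2 lay below ERI1 and above NPAT, and SYMPK above ZNF473, in all libraries. The order changed with the medium. CPSF3 was above SLBP in both E15.5-mSGcm libraries (20.5 and 19.8 against 16.7 and 17.3 CPM per kb) and in the second control library, and LSM10 was above CPSF2 in all 4 libraries of the chick media. LSM10 was read at a higher level per length than its ring partner LSM11 in every library.

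**Figure D2:**
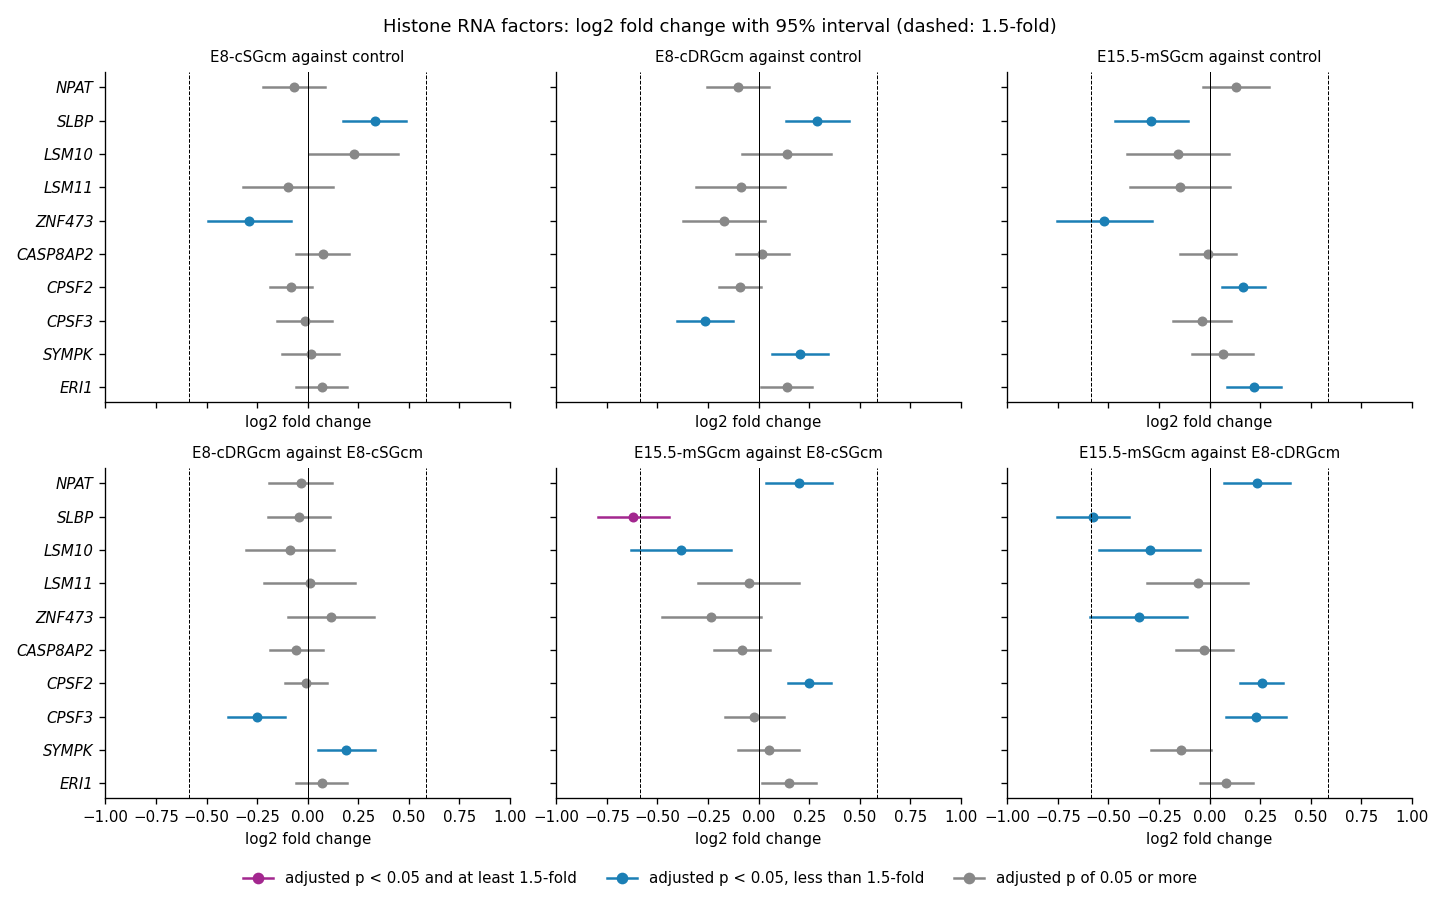
Log2 fold change (horizontal axes) of each factor in 6 comparisons, 3 against control (top) and 3 between conditioned media (bottom), with 95% intervals (lines) and the 1.5-fold thresholds (dashed). Only SLBP in E15.5-mSGcm against E8-cSGcm lies past the threshold, at −0.62.

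A gene was called when edgeR's Benjamini-Hochberg adjusted p was under 0.05 and its fold change at least 1.5. Since the factors were chosen with results known, the counts below are a description. In E8-cSGcm 0 of 10 factors were called, against 8.59% of all genes tested, and 2 passed the adjusted p alone, against 31.3%. In E8-cDRGcm 0 of 10 were called (20.7% of all genes) and 3 passed the adjusted p alone (49.5%). In E15.5-mSGcm 0 of 10 were called (13.9%) and 4 passed the adjusted p alone (37.8%). The 9 that passed were SLBP in all 3 media, ZNF473 in E8-cSGcm and E15.5-mSGcm, CPSF3 and SYMPK in E8-cDRGcm, and CPSF2 and ERI1 in E15.5-mSGcm. With DESeq2, added after the data were seen, 5 of the 9 passed, the exceptions being ZNF473 in E8-cSGcm, SYMPK in E8-cDRGcm, and SLBP and ERI1 in E15.5-mSGcm. With each library left out in turn, 7 of the 9 missed the adjusted p at least once, and SLBP in E8-cSGcm and ZNF473 in E15.5-mSGcm did not. Libraries did not overlap control for 5 of the 10 factors in E8-cSGcm (63.6% of all genes), 7 in E8-cDRGcm (73.5%) and 7 in E15.5-mSGcm (68.3%), near or below the shares over all genes.

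Of the 30 changes against control, 29 had a 95% interval wholly inside 1.5-fold in either direction, the exception being ZNF473 in E15.5-mSGcm, whose interval reached −0.76. The median absolute log2 fold change of the factors was 0.08 in E8-cSGcm, 0.14 in E8-cDRGcm and 0.15 in E15.5-mSGcm. Over all genes tested these medians were 0.22, 0.32 and 0.26. The summed level of the 10 factors was 618 CPM ± 6.22 in control, 620 ± 7.05 in E8-cSGcm, 613 ± 1.36 in E8-cDRGcm and 639 ± 8.53 in E15.5-mSGcm (SD, n = 2 each).

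Between conditioned media, 0 of 10 factors were called for E8-cDRGcm against E8-cSGcm (7.49% of all genes), and CPSF3 at −0.25 and SYMPK at 0.19 passed the adjusted p alone (30.2%). For E15.5-mSGcm against E8-cSGcm 1 of 10 was called (22.3%), which was SLBP, and 4 passed the adjusted p (49.8%), the others being NPAT at 0.20, LSM10 at −0.38 and CPSF2 at 0.25. For E15.5-mSGcm against E8-cDRGcm 0 of 10 were called (26.2%) and 6 passed the adjusted p (52.6%), namely NPAT at 0.23, SLBP at −0.58, LSM10 at −0.30, ZNF473 at −0.35, CPSF2 at 0.26 and CPSF3 at 0.23. With DESeq2 the numbers passing the adjusted p were 0, 2 and 2 in place of 2, 4 and 6, and the 2 were SLBP and CPSF2 against each chick medium. These comparisons share libraries with each other and with those against control.

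The targets of the factors, the replication-dependent histone mRNAs, fell in E15.5-mSGcm and changed little in sum in the chick media. Their summed level was 7312 and 7382 CPM in the control libraries, 6726 and 7694 CPM in E8-cSGcm, 6520 and 7678 CPM in E8-cDRGcm, and 1628 and 1634 CPM in E15.5-mSGcm. The E15.5-mSGcm libraries lay far below the other 6, which overlapped between groups. Of 64 listed histone genes 53 were tested. In E15.5-mSGcm 50 were called lower, against 7.27% of all genes tested, and 0 higher, against 6.65%, with a median log2 fold change of −2.35 beside −0.02 over all genes. In E8-cSGcm 2 were called lower (3.86% of all genes) and 0 higher (4.73%), with a median of −0.08 beside 0.01. In E8-cDRGcm 6 were called lower (10.9%) and 0 higher (9.81%), with a median of −0.18 beside 0.01. These small medians moved with single libraries, to 0.02 and −0.17 without 1 E8-cSGcm library and to −0.07 and −0.32 without 1 E8-cDRGcm library. Against each chick medium 48 of the 53 were called lower in E15.5-mSGcm and 1, H3C6, higher. Of all genes, 22.3% were called in either direction against E8-cSGcm and 26.2% against E8-cDRGcm. H3C6 stood at 1.45 and 1.29 there, but at 0.31 and not called against control. Most of its difference was thus a lower level in the chick media than in control.

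**Figure D3:**
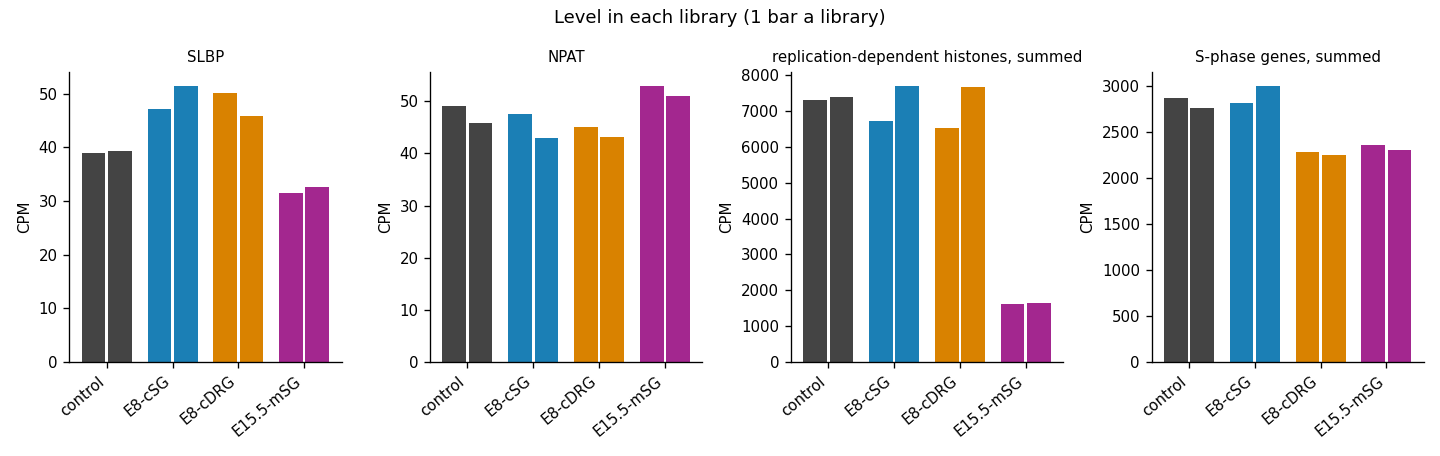
Level in CPM (vertical axes, from 0) of SLBP, of NPAT, of the summed replication-dependent histone genes and of the summed S-phase genes, with 1 bar for each library. The summed histone level drops to 1628 and 1634 CPM in E15.5-mSGcm, where SLBP is at 31.5 and 32.7 CPM and NPAT at 52.9 and 51.0 CPM.

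H4C9 fell from 103 and 95.1 CPM in control to 9.22 and 9.60 CPM in E15.5-mSGcm, a log2 fold change of −3.39 ± 0.10. H2BC11 fell from 145 and 133 CPM to 10.9 and 15.8 CPM (−3.37 ± 0.20), and H3C12 from 49.9 and 50.1 CPM to 5.38 and 4.80 CPM (−3.30 ± 0.15). H2AC16 at −3.15, H2BC18 at −3.13 and H3C7 at −3.05 followed, so that H2A, H2B, H3 and H4 genes were all among the largest falls. H3C12 was also called lower in E8-cDRGcm (−1.07 ± 0.10).

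The 3 of 53 that were not called in E15.5-mSGcm were H3C6 (0.31 ± 0.23), H4C5 (−0.47 ± 0.06) and H4C16 (−0.53 ± 0.15), named after their values were seen, and H4C13 had the next smallest fall (−0.67 ± 0.08). H3C6 was at only 4.48 CPM ± 0.27 in control and 5.53 CPM ± 0.58 in E15.5-mSGcm (SD, n = 2 each). Among forms of the stem-loop shown above, the commonest, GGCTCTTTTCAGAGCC, had a median log2 fold change of −2.49 over 31 tested genes, and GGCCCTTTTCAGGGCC had −1.65 over 7. The loop form of H3C6, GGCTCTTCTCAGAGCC, and that of H4C13, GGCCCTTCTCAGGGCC, each occurred in 1 gene, so gene and form cannot be told apart. The form shown for H4C9 had a median of −2.23 over 3 tested genes, and that shown for H2BC11 had −2.49 over 6. No form was shared between H4 genes and other histone genes, so form and histone family cannot be told apart across them. Whether the form went with the size of the fall was not tested. Histone genes are near-identical copies, and how reads were split among them is uncertain for each single gene.

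Partners of the factors, a list of 44 genes for the rest of the pathway, were 41 among the genes tested. In E8-cSGcm 0 were called higher (4.73% of all genes) and 1 lower (3.86%), in E8-cDRGcm 2 higher (9.81%) and 5 lower (10.9%), and in E15.5-mSGcm 0 higher (6.65%) and 4 lower (7.27%), with medians of 0.07, 0.08 and −0.14. The 5 and 4 lower calls were near the shares over all genes. In E15.5-mSGcm the 4 were cyclins. CCNE1 and CCNE2, the cyclin E genes whose kinase activates NPAT, were at −0.79 ± 0.14 and −0.81 ± 0.17, and CCNF, which targets SLBP for degradation, was at −0.87 ± 0.07. CCNA2 was the fourth, at −0.60, close to the threshold, and 3 partners in place of 4 were called without the second control library. CCNF was at 77.0 and 82.3 CPM in control and at 42.5 and 44.9 CPM in E15.5-mSGcm, where SLBP was also low.

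In the chick media SRRT was called lower in both, and CSTF2T, EXOSC10, NCBP1 and SNRPD3 were called lower in E8-cDRGcm, where NELFA (0.78) and CDK1 were called higher. SRRT, also called ARS2, which ties the cap-binding complex to histone 3′ processing, was at 186 and 185 CPM in control, 92.4 and 104 CPM in E8-cSGcm, 82.0 and 75.5 CPM in E8-cDRGcm, and 214 and 217 CPM in E15.5-mSGcm. Its log2 fold change was −0.92 ± 0.06 in E8-cSGcm and −1.24 ± 0.06 in E8-cDRGcm, and in E15.5-mSGcm it was 0.21 ± 0.06 and not called. EXOSC10, a nuclear exosome nuclease, was at −0.82 ± 0.06 in E8-cDRGcm. CDK1, the mitotic kinase linked to SLBP breakdown after S phase, rose there by 0.86 ± 0.06, from 90.5 and 87.6 CPM to 166 and 156 CPM. In E8-cSGcm CDK1 was at 0.45 ± 0.06 and in E15.5-mSGcm at −0.38 ± 0.06, so its values had the same signs as those of SLBP in the 3 media, which share their control libraries.

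Replacement histones, whose mRNAs are polyadenylated and need no stem-loop, gave a different picture from the stem-loop genes. Of 8 tested in E15.5-mSGcm, 2 were called lower (7.27% of all genes) and 0 higher (6.65%), with a median of −0.08. The 2 lower calls exceeded that share, in a list of only 8. H1-10, a linker histone, was at −0.80 ± 0.05. H3-3A at 0.07, H3-3B at 0.0008 and H2AZ1 at −0.02, which were not called, stood beside the median of −2.35 for the stem-loop genes. In E8-cDRGcm 1, H1-10, was called higher (0.64 ± 0.05), against 9.81% of all genes. In E8-cSGcm 0 were called (8.59% of all genes in either direction).

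S-phase genes were counted because SLBP protein and histone mRNAs both peak in S phase. Of 24 tested, 0 were called in E8-cSGcm (8.59% of all genes in either direction), 3 were called lower in E8-cDRGcm (10.9%) and 7 lower in E15.5-mSGcm (7.27%), with medians of 0.11, −0.29 and −0.35. Their summed level was 2819 CPM ± 71.2 in control, 2910 ± 131 in E8-cSGcm, 2268 ± 17.7 in E8-cDRGcm and 2340 ± 38.1 in E15.5-mSGcm (SD, n = 2 each). The sum was thus 1.24-fold lower than control in E8-cDRGcm and 1.20-fold lower in E15.5-mSGcm. The histone sum was 1.03-fold lower with overlapping libraries in E8-cDRGcm, where SLBP was higher, and 4.51-fold lower in E15.5-mSGcm. Any link between the S-phase genes, the histone mRNAs and SLBP was not tested. In E15.5-mSGcm CHAF1B, a chromatin assembly factor subunit, was at −0.95 ± 0.13, the replication fork gene CDC45 at −0.90 ± 0.11 and the ribonucleotide reductase gene RRM2 at −0.89 ± 0.09. PCNA at −0.01 and MCM3 at −0.05, picked after their values were seen, were not called there. On the adjusted p alone 17 of the 24 were lower and 1 higher there, against 37.8% of all genes in either direction.

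The genes whose pattern over the 8 libraries was most like that of SLBP were LSM14B (Pearson r = 0.998), CHEK2 (r = 0.995) and RSPH3 (r = 0.992), on log2 CPM. SLBP was taken for this comparison after its values were seen, and the 8 points share their groups and libraries, so r is a description. CHEK2, a checkpoint kinase, had group means of 26.5 CPM in control, 34.1 in E8-cSGcm, 32.7 in E8-cDRGcm and 22.2 in E15.5-mSGcm, the order of the SLBP means. LSM14B followed the same order, at 36.8, 46.6, 44.5 and 30.5 CPM.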

How the data were processed

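RNA-seq of 8 IGR-N91 libraries (50 ng total RNA, stranded total RNA kit, 75 bp single reads) was analysed. The authors made the counts with bcl2fastq 2.17.1.14, cutadapt 1.9.1, TopHat2 2.1.0 and HTSeq 0.11.3 per the labels, and deposited raw counts per Ensembl gene. The study's methods name hg19 and the submitters' processing notes hg38. Symbols, positions and merged exon lengths come from GENCODE release 44 lifted to GRCh37 (58611 IDs matched), and base sequences from its transcripts.

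Libraries were grouped by title. Counts were normalized by TMM, filtered by group (filterByExpr) and tested in edgeR 4.0.16 (R 4.3.3) with robust quasi-likelihood fits over all 8 libraries and 6 comparisons, with Benjamini-Hochberg adjustment over 16680 genes. The SE is the absolute log2 fold change over the root of the F statistic, and 95% intervals use the fit's degrees of freedom. The functions were tested on simulated counts. The members and gene lists were chosen with earlier results of these data known. Genes named were all 10 factors and, of each list, up to 6 called genes with the largest change against control. Genes outside this rule are given as examples, chosen after their values were seen. Alternatives were DESeq2 1.42.0, scaling by RLE, minimum counts of 1 in total or of 10 in each library, separate fits of the groups compared, calls on the adjusted p alone (with DESeq2 as well, an alternative added after the data were seen), a replicate block, and each library left out. Depth was 7930765 to 15060744 counts. No column was left unmapped, and PECAM1 had no match. Values of some listed genes are not reported here.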

Additional observations from a re-analysis of the deposited data

Results flagged for a closer look

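SLBP met the rule for an effect that differs between groups. Its change against control was 0.33 in E8-cSGcm and −0.29 in E15.5-mSGcm on the log2 scale, and the direct comparison of both media gave −0.62 ± 0.09 (edgeR, Benjamini-Hochberg adjusted p = 2e-07 over all genes tested, n = 2 per group), with both E15.5-mSGcm libraries below both E8-cSGcm libraries. SLBP was chosen with results of these data known, so this p is not independent of the choice. Over the alternatives the value lay between −0.69 and −0.56 and the adjusted p between 3.2e-13 and 3.1e-05.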

How the results depend on the processing

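Of 900 single-factor values under the alternatives, 844 kept their direction and call, 29 were called only under the alternative and 1 no longer was. Most of the 29 came from calls on the adjusted p alone, which left the fold changes as they were. Those past the fold threshold were, all in E15.5-mSGcm, SLBP against E8-cDRGcm, LSM10 against E8-cSGcm and ZNF473 against control. The other 26 of the 900, over 18 changes of at most 0.09 in size, turned direction. With RLE scaling, 10 counts in each library or separate fits, CASP8AP2 in E15.5-mSGcm against control was 0.0037, 0.0010 and 0.0069, and with 1 count in total SYMPK in E15.5-mSGcm against E8-cSGcm was −0.014. The rest turned when 1 library was left out. In E8-cSGcm against control, NPAT then ranged from −0.14 to 0.0090, CASP8AP2 from −0.010 to 0.16, CPSF3 from −0.073 to 0.052 and SYMPK from −0.0092 to 0.044. In E8-cDRGcm against control, CASP8AP2 ranged from −0.020 to 0.055. In E15.5-mSGcm against control, CASP8AP2 ranged from −0.042 to 0.014 and CPSF3 from −0.11 to 0.022. For E8-cDRGcm against E8-cSGcm, NPAT ranged from −0.11 to 0.037, SLBP from −0.10 to 0.024, LSM10 from −0.21 to 0.030, LSM11 from −0.080 to 0.11, CASP8AP2 from −0.14 to 0.031 and CPSF2 from −0.026 to 0.0091. For E15.5-mSGcm against E8-cSGcm, LSM11 ranged from −0.15 to 0.046 and CPSF3 from −0.074 to 0.012, and against E8-cDRGcm, LSM11 ranged from −0.14 to 0.013 and CASP8AP2 from −0.061 to 0.0054.

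On the adjusted p alone, without a minimum fold, 2, 3 and 4 factors were called against control in E8-cSGcm, E8-cDRGcm and E15.5-mSGcm. Between media 2 were called for E8-cDRGcm against E8-cSGcm, 4 for E15.5-mSGcm against E8-cSGcm and 6 for E15.5-mSGcm against E8-cDRGcm. DESeq2 with the adjusted p alone, added after the data were seen, called 1, 2 and 2 factors against control and 0, 2 and 2 between media in the same order. By edgeR in the same order of media, this called 19, 28 and 27 partners and 12, 18 and 18 S-phase genes, and in the chick media 16 and 31 histone genes and 5 and 7 replacement histones.

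With 1 library left out, 0 to 2 factors were called for E15.5-mSGcm against E8-cSGcm, 0 without the second E8-cSGcm library (SLBP at −0.56) and 2 without the second E15.5-mSGcm library (LSM10 at −0.59 besides SLBP). For E15.5-mSGcm against E8-cDRGcm 0 to 1 were called, SLBP being at −0.65 to −0.51, and 1 with the filter at 1 count in total (SLBP at −0.64). Against control 0 to 1 were called in E15.5-mSGcm, the 1 being ZNF473 at −0.64 without the second control library. Histone genes called in E8-cSGcm numbered 1 to 4, without the first and the second E8-cSGcm library. In E8-cDRGcm they numbered 5 to 10, the most without its second library, S-phase genes 3 to 6 (6 without the second control library and 5 without the first E8-cDRGcm library), and replacement histones 1 to 2, the most without the first control library. The cause of these shifts was not tested.

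Deviations from the group means of same-numbered libraries correlated at −0.044 to 0.042, so no shared shift by replicate number was seen. With 2 libraries per group, such correlations cannot exclude that libraries were handled in pairs. With the replicate block, 0, 0 and 0 factors were called against control and 1, SLBP at −0.62, between media, and 7 histone genes were called in E8-cDRGcm.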
